A study of Mus musculus with 2 samples.

Results

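The genes described here are Rest, its CoREST partners Rcor1, Rcor2 and Rcor3, the demethylase gene Kdm1a, the deacetylase genes Hdac1, Hdac2 and Hdac3, and the scaffold genes Sin3a and Sin3b. These 10 genes were taken by symbol from a table of 23284 gene symbols, and each symbol had a record at 1 locus. They were measured by RNA sequencing in 2 mouse medulloblastomas, tumours of the cerebellum, with 1 library per genotype. Both animals carried CAG-CreER, a Cre recombinase that tamoxifen activates and that the broadly active CAG promoter drives, and Rosa26-SmoM2, which encodes an activated Smoothened that switches on Hedgehog signalling. Both were given 10 tamoxifen injections. The wild-type tumour was Brg1+/+ and the knockout tumour Brg1F/F, with Brg1 alleles flanked by loxP sites. The labels give neither age nor sex, and nothing in them limits recombination to tumour cells.

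REST is a zinc finger repressor that binds the RE1 element of neuronal genes and keeps them silent in non-neuronal cells and in precursors. Its amino-terminal domain recruits the SIN3 scaffolds with HDAC1 and HDAC2, and its carboxy-terminal domain recruits CoREST with HDAC1, HDAC2 and the histone H3 lysine demethylase KDM1A. HDAC3 acts mainly in the separate NCoR corepressor. BRG1, the product of Smarca4, is the ATPase that drives BAF chromatin remodelling and is known to interact with REST and CoREST. REST falls as neurons mature, and its targets include ion channel, synaptic vesicle and secretory granule genes. The comparison addresses how these corepressor genes and the genes they act on differ in Hedgehog-type medulloblastoma when Brg1 is deleted.

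Levels are FPKM, fragments scaled to transcript length and library size, so levels of different genes can be set side by side. Differences are log2((knockout FPKM + 1)/(wild-type FPKM + 1)), and a difference was counted when it reached 2-fold on this scale. Since each genotype had 1 library, no value carries an error or a test, and "higher" and "lower" describe these 2 libraries. The read depth is unknown. Among 13279 records with at least 1 FPKM in a library, called expressed below, the middle of the log2 ratios was 0.09 (median) and their quartiles were -0.41 and 0.68. Scaling both libraries to the same FPKM sum moved that median by 0.15, to 0.24. Smarca4, the targeted gene, stood at 14.0 FPKM in the wild type and 3.76 in the knockout (log2 ratio -1.66), over all its exons and so not only the deleted part. The granule precursor factor Atoh1 and the Hedgehog target Gli1 mark this tumour type and were present in both libraries, at lower levels in the knockout. Atoh1 had 67.0 and 10.4 FPKM (log2 ratio -2.58), and Gli1 had 89.2 and 9.03 FPKM (log2 ratio -3.17). Whether the libraries differ in their share of tumour cells was not tested. Xist had 268.3 and 0.369 FPKM, and the Y-linked gene Uty was listed at 0 in the wild type and had 8.78 FPKM in the knockout. Sex and genotype therefore cannot be told apart for any difference below.

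The deposited FPKM values of most of these genes lay outside the lower and upper bounds deposited beside them, which bears on every level below. Of the 10 genes, 7 had an FPKM below its own lower bound in each library. Among all expressed records, 29.1% of wild-type and 29.9% of knockout values lay below their bound. Sin3a and Sin3b lay inside their bounds in both libraries and Hdac3 in the wild-type library. The gap was widest for Hdac2, whose wild-type FPKM was 38.0% of the midpoint of its bounds, and for Hdac1, at 39.3%. How the bounds were made is not given in the sources used here, so results are given from FPKM. The midpoint ratio, the same log2 ratio from the midpoints, is added for members outside their bounds and for some other genes. A gene given without it may have a midpoint ratio of another size. That of Sirt2, for example, was 1.64, beside 1.24 from FPKM.

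Rest was the least abundant of the 10 genes in both libraries. It had 0.360 FPKM in the wild-type library, with bounds of 0.649 and 1.04 FPKM. It had 0.504 FPKM in the knockout library, with bounds of 0.919 and 1.32 FPKM. The bounds of the libraries overlapped, and the log2 ratio was 0.14, or 0.20 from the midpoints. The knockout level was 139.7% of the wild-type level from FPKM and 132.6% from the midpoints. The 1 FPKM added to each FPKM value exceeds the value itself, which shrinks the ratio. With 0.1 FPKM added it was 0.39. Rest was thus the 1 member under 1 FPKM in both libraries and entered no count of expressed genes. The midpoint of its knockout bounds was 1.12 FPKM, over that limit, but the filter was applied to FPKM alone. Its record (chromosome 5, 77265494 to 77283697, mm10, plus strand) leaves out 2738 bases of the span that GENCODE M21 gives the gene, nearly all at its 3' end. In bulk tumour RNA, fewer cells of a type and less RNA per cell cannot be told apart.

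Rcor2 was the member with the largest difference. It encodes a CoREST scaffold that joins the deacetylases to KDM1A. It had 85.7 FPKM in the wild-type library (bounds 102.3 and 108.9), the highest FPKM of the 10 genes there. In the knockout library it had 36.4 FPKM (bounds 40.8 and 44.7), 42.4% of the wild-type value. The log2 ratio was -1.21, and -1.28 from the midpoints, and 6.0% of expressed records had a lower ratio. It was the only 1 of the 9 expressed members past the 2-fold rule, which 8.67% of expressed records passed in the lower direction and 16.1% in the higher. From the bound midpoints the same gene passed, beside 8.74% of expressed records, and with equal FPKM sums it passed beside 6.56%. A count of 1 in 9 (11.1%) is near these background shares, and 0 of the 9 were at least 2-fold higher. The Rcor2 record spans chromosome 19, 7269764 to 7275225, on the plus strand, and its start lies inside the GENCODE gene, 2439 bases of which are upstream.

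The other CoREST genes were less abundant and nearly level with each other. Rcor1, which encodes the founding CoREST protein, stood at 6.78 FPKM in the wild type and 5.90 in the knockout (log2 ratio -0.17, midpoint ratio -0.39). Rcor3 had 6.88 and 5.94 FPKM (log2 ratio -0.18, midpoint ratio -0.34). With equal FPKM sums both ratios were close to 0, at -0.02 for Rcor1 and -0.03 for Rcor3. Rcor2 therefore made up 86.3% of the summed CoREST FPKM in the wild type and 75.5% in the knockout. The sum went from 99.4 to 48.2 FPKM. Rcor2 exceeded Rcor1 by 12.6 times in the wild-type and 6.17 times in the knockout library, a ratio that no scaling of a library can move; from the midpoints it was 9.49 and 5.18.

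**Figure D1:**
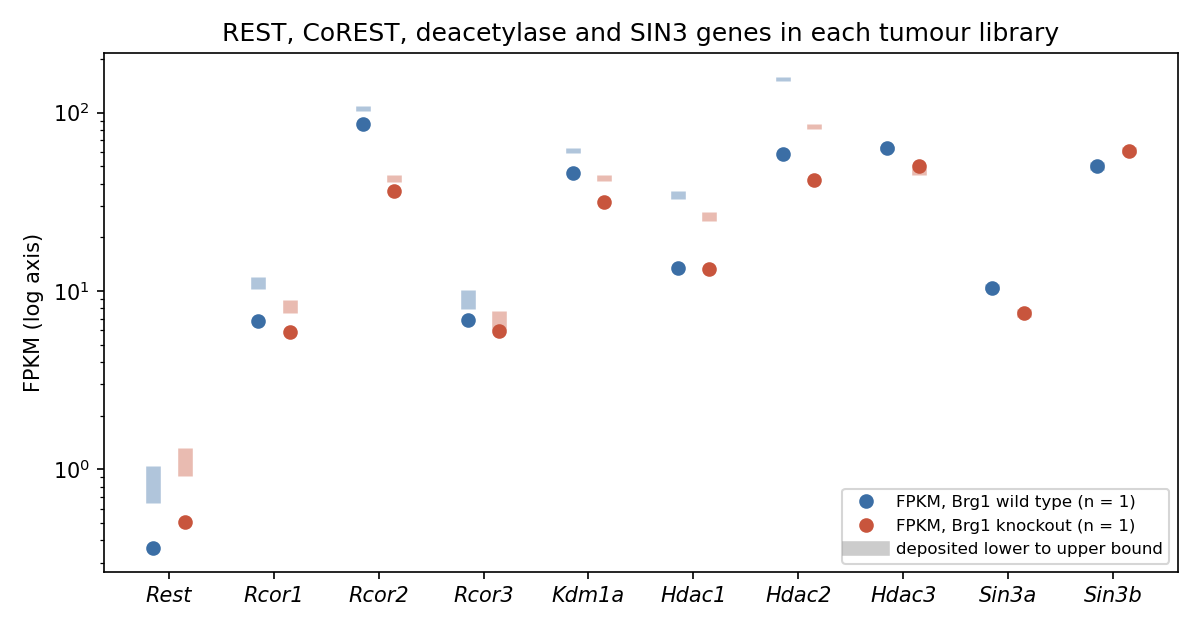
FPKM of the 10 genes (log axis) in the Brg1 wild-type (blue) and Brg1 knockout (red) libraries, n = 1 each; points are deposited FPKM and pale bars run from the deposited lower to upper bound. Rcor2 goes from 85.7 to 36.4 FPKM, Rest stays under 1 FPKM, and the points of 7 genes lie below their bars in both libraries, while bars too short to see for Sin3a and Sin3b lie under their points.

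Kdm1a encodes LSD1, which removes methyl groups from histone H3 lysine 4 within the CoREST complex. It stood at 46.0 FPKM in the wild type and 31.7 in the knockout (log2 ratio -0.52, midpoint ratio -0.50), 68.9% of the wild-type value. This was within 2-fold and second in size to Rcor2 among the 9 expressed members, though Hdac2 took that place from the midpoints.

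The deacetylases stayed within 2-fold. Hdac2 had 58.8 FPKM in the wild-type library against bounds of 150.2 and 159.1. In the knockout library it had 41.9 FPKM against bounds of 80.6 and 85.9. Its log2 ratio was -0.48 from FPKM and -0.89 from the midpoints, by which the knockout level was 53.8% of the wild-type level. Hdac1, the close paralogue of Hdac2, had 13.5 FPKM (bounds 32.6 and 36.1) and 13.2 FPKM (bounds 24.7 and 27.6). Its log2 ratio was -0.03, or -0.38 from the midpoints and 0.13 with equal FPKM sums, so no direction can be given. Of the 10 genes, Hdac1 was the 1 whose longest GENCODE M21 protein-coding transcript matched transcripts of other genes over at least 300 bases at 90% identity or more. These were 3 processed pseudogenes, of which Gm10093 was the closest, at 99.4% identity over 1444 bases. None of them had a record in the tables, and how reads that fit both were counted is not given in the sources used here, so the Hdac1 level is uncertain. Hdac3 had 63.0 and 50.2 FPKM (log2 ratio -0.32, midpoint ratio -0.42).

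The order of the deacetylases depended on which deposited value was read. By FPKM, Hdac3 was the most abundant and Hdac2 close behind, with an Hdac2 to Hdac3 ratio of 0.934 in the wild type and 0.835 in the knockout. By the midpoints, Hdac2 exceeded Hdac3 by 2.45 and 1.78 times and was the most abundant of all 10 genes in both libraries. Hdac1 was below Hdac2 either way, at 0.230 of its FPKM in the wild type and 0.316 in the knockout, and at 0.222 and 0.314 from the midpoints. The summed FPKM of these deacetylases went from 135.4 to 105.2 FPKM, a log2 ratio of -0.36. The sum of their midpoints went from 252.0 to 156.3 FPKM, a log2 ratio of -0.69.

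The SIN3 scaffolds, whose FPKM lay inside their bounds, had log2 ratios of opposite sign, both within 2-fold. Sin3a, a scaffold gene of the SIN3 deacetylase complex, had 10.4 FPKM in the wild-type library (bounds 10.1 and 10.9). In the knockout library it had 7.54 FPKM (bounds 7.15 and 7.93), a log2 ratio of -0.42. Sin3b, its paralogue with a role in cell cycle exit, had 50.3 FPKM (bounds 47.9 and 53.0) and 61.2 FPKM (bounds 58.5 and 64.1), a log2 ratio of 0.28. The bounds did not overlap between the libraries for either gene, nor for the other 7 expressed members, but 77.7% of all expressed records shared that property. Sin3b exceeded Sin3a by 4.83 times in the wild type and 8.12 times in the knockout. Sin3b was the most abundant of the 10 genes by FPKM in the knockout library and the fourth in the wild-type library, where Rcor2 was first.

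**Figure D2:**
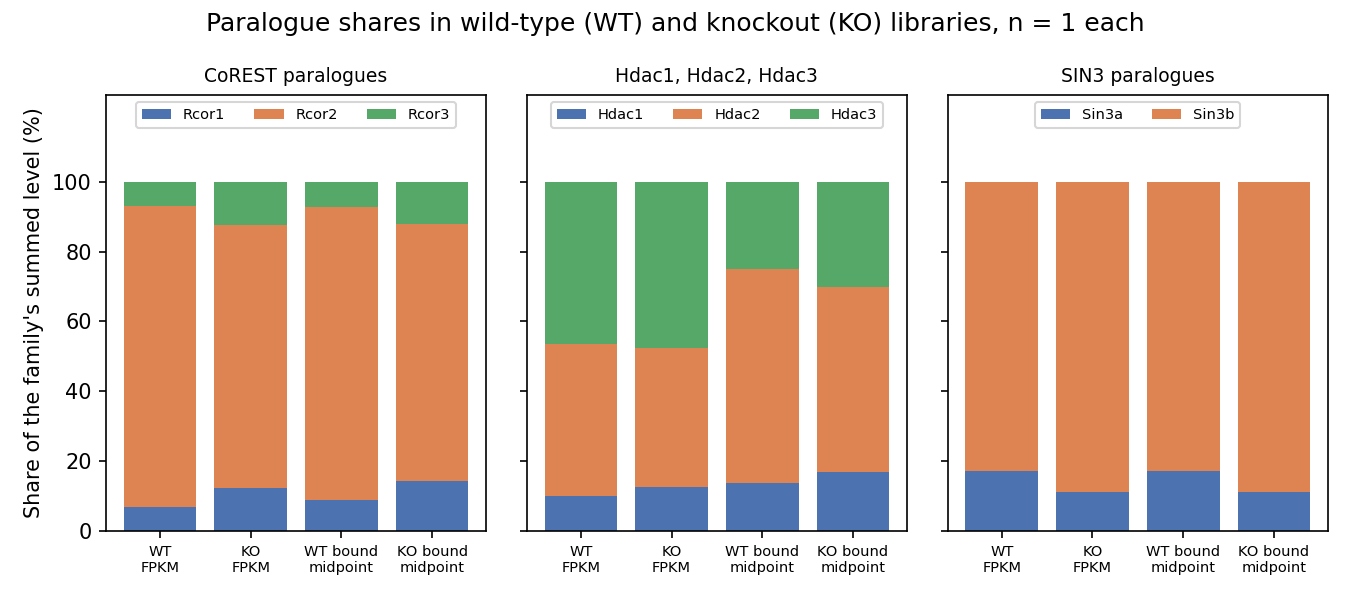
Share of each family's summed level (percent) taken by each paralogue in the wild-type (WT) and knockout (KO) libraries, n = 1 each, from FPKM (left pair of bars) and from the midpoints of the deposited bounds (right pair). Rcor2 takes 86.3% and 75.5% of the CoREST FPKM and Sin3b 82.8% and 89.0% of the SIN3 FPKM, while the shares of Hdac2 and Hdac3 change with the value read.

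Of the 9 expressed members, 8 had a log2 ratio under 0, all but Sin3b, against 45.2% of expressed records. With equal FPKM sums 7 did, since Hdac1 changed sign, but the share of all expressed records under 0 with that scaling is not given. The median over the 9 was -0.32, or -0.15 with equal sums, beside 0.09 and 0.24 for all expressed records. Cell cycle genes were lower in the same library. The rule placed all 12 on the list, among them Mki67, as lower, beside 8.67% of expressed records. Their summed level went from 1113 to 297.1 FPKM, with none at 0. The part of dividing cells in the members' values was not tested.

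Other subunits of the corepressor complexes were mostly within 2-fold. The counts of the lists that follow stand beside 8.67% of expressed records at least 2-fold lower and 16.1% at least 2-fold higher. Of 18 further SIN3 complex genes 1 was at least 2-fold lower (5.56%) and 0 higher, with a median log2 ratio of -0.29, so neither share was above the background. The lower gene was Fam60a, a SIN3 subunit gene named here after its value was seen, with 53.5 and 13.1 FPKM (log2 ratio -1.95). By FPKM, the most abundant subunit genes were Ogt (107.6 and 101.6 FPKM) and Rbbp4 (96.1 and 58.1 FPKM, log2 ratio -0.72). Ogt encodes the O-GlcNAc transferase and Rbbp4 a histone-binding protein shared with NuRD. The order depended on the value read, since the wild-type FPKM of Ogt lay above its bounds (80.7 and 84.3). Rbbp7, named after its value was seen, had 61.6 FPKM there with bounds of 99.6 and 106.3. Ogt had a log2 ratio of -0.08, or -0.23 from the midpoints and 0.09 with equal FPKM sums.

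Among 14 expressed genes of other REST and CoREST cofactors, 2 were lower by 2-fold or more (14.3%, beside 8.67%) and 0 higher (median -0.29). With equal FPKM sums 1 of the 14 was lower, beside 6.56%. Gse1, which encodes a CoREST complex component, had 48.8 and 12.2 FPKM (log2 ratio -1.91). Hmg20b, which encodes BRAF35, an HMG-box subunit of the complex, had 12.9 and 5.40 FPKM (log2 ratio -1.12, but -0.96 with equal sums). The list also held the H3K9 methyltransferase genes Ehmt1 (11.6 and 8.72 FPKM) and Ehmt2 (15.4 and 13.2 FPKM) and the reader gene Phf21a (13.9 and 10.4 FPKM), which were named after their values were seen and lay within 2-fold. Gfi1 and Gfi1b, repressors that also recruit CoREST, stayed under 1 FPKM in both libraries.

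In NuRD, another complex that holds HDAC1 and HDAC2, the rule counted 2 of 10 expressed genes as lower (20%, beside 8.67%) and 1 as higher (10%, beside 16.1%), with a median of -0.47. Cdk2ap1 had 381.3 and 112.1 FPKM (log2 ratio -1.76). Mta1 had 32.8 and 15.4 FPKM (log2 ratio -1.05, but -0.96 from the midpoints and -0.88 with equal sums). The remodeller gene Chd3 had 2.45 and 6.65 FPKM (log2 ratio 1.15, but 0.96 from the midpoints). Its bounds lay far above the FPKM, at 11.2 to 12.4 in the wild-type and 23.1 to 24.6 in the knockout library. For the NCoR complex, where HDAC3 acts, the list used here is partial and no count is given. Its scaffold gene Ncor1 had 15.7 and 18.2 FPKM (log2 ratio 0.20), and Tbl1x, a core subunit gene, had 15.4 and 14.0 FPKM (log2 ratio -0.13, but 0.04 with equal sums).

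**Figure D3:**
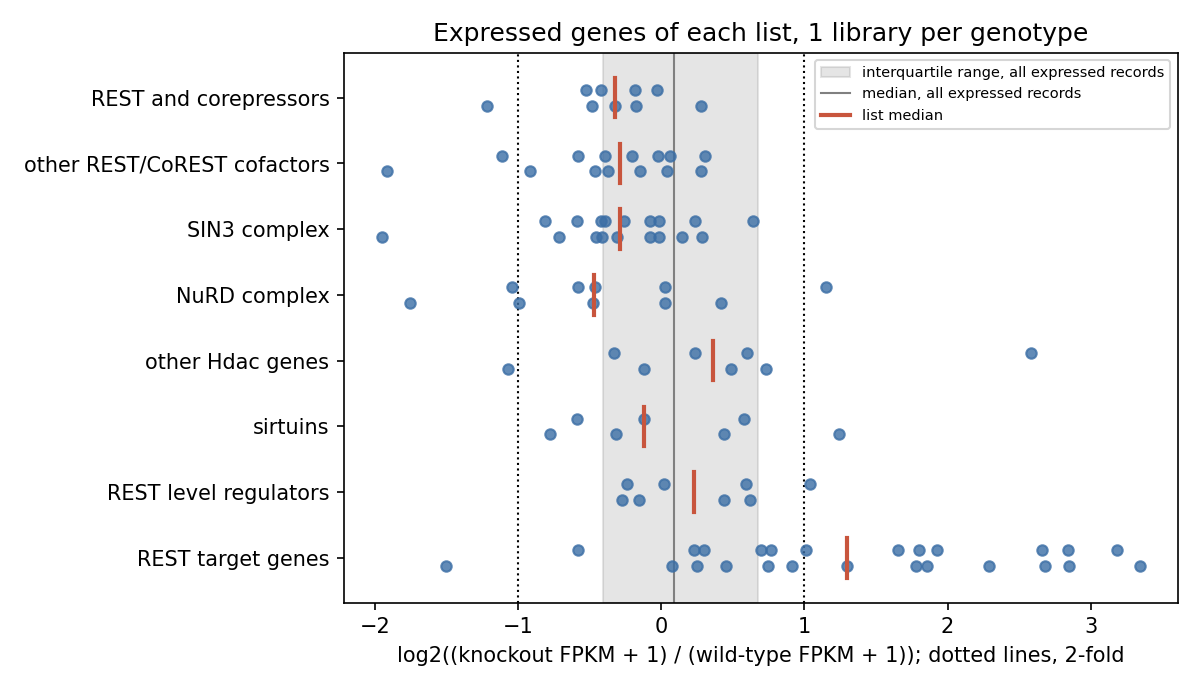
Log2 ratio of knockout to wild-type FPKM, with 1 FPKM added to each, for the expressed genes of 8 lists; each point is a gene, red lines are list medians, the grey band is the interquartile range of all expressed records and dotted lines mark 2-fold. The corepressor lists have medians between -0.47 and -0.29, and the REST target genes have a median of 1.29.

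Deacetylase genes outside the 10 showed single genes past the rule in each direction. Hdac11, the class IV deacetylase gene, stood at 1.75 FPKM in the wild type and 15.5 in the knockout (log2 ratio 2.59). Hdac9, a class IIa gene, had 8.26 and 3.42 FPKM (log2 ratio -1.07, but -0.92 with equal sums). The other 6 of these 8 genes were within 2-fold. Among 7 sirtuins, the NAD-dependent deacetylases and deacylases, Sirt2 was at least 2-fold higher, with 35.9 and 86.1 FPKM (log2 ratio 1.24), and 0 were lower. Sirt4, a mitochondrial sirtuin gene, had 18.8 and 10.6 FPKM (log2 ratio -0.77). Sirt2 is abundant in myelinating oligodendrocytes, whose 6 markers summed to 48.0 FPKM in the wild type and 587.8 in the knockout, with none at 0; their part in the Sirt2 value was not tested.

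Genes that set the level of REST protein or of its transcripts were mostly within 2-fold, with 1 of 8 higher and 0 lower (median 0.23). Fbxw11, a paralogue of the REST ubiquitin ligase adaptor gene Btrc, had 27.9 and 58.4 FPKM (log2 ratio 1.04, but 0.81 from the midpoints). Btrc itself had 4.36 and 7.25 FPKM (log2 ratio 0.62). Srrm4, which encodes a neural splicing factor that reduces active REST by inserting an exon, had 6.66 and 9.40 FPKM (log2 ratio 0.44). Both were named after their values were seen. Csnk1a1, a casein kinase gene, had 127.8 and 114.6 FPKM. Gene-level FPKM does not separate the splice forms of Rest.

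Many of the genes that REST is known to repress, though not all, had a higher level in the knockout library. The list of textbook targets was chosen with earlier results of these data known, so its shares are a description only. It had 31 symbols for 30 genes, since Scn2a is a later symbol of Scn2a1, and 25 of them were expressed. Of the 25, 14 were at least 2-fold higher (56%, beside 16.1% of all expressed records) and 1 was lower, with a median log2 ratio of 1.29. The filter favours this direction: 4 of the 25 passed it through the knockout library alone. Over all 30 genes without a filter, 14 were at least 2-fold higher (46.7%, beside 9.01% of all 23746 records) and the median was 0.84. With equal FPKM sums 15 of 25 were higher, beside 19.5% of expressed records. From the bound midpoints 14 of 25 were higher, beside 15.6%.

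The 3 sequences below show what the REST recognition element looks like in target genes whose promoter holds a close match. They are all the matches found among the listed targets, and the log2 ratios of these genes differ in sign. In RefSeq promoter windows (GRCm38.p6, 250 bases before to 50 after the start), both strands were searched for the RE1 core, CAGCACC, then any 2 bases, then GGACAG, allowing 1 mismatch in its 13 fixed letters. This form of the core and the allowance of 1 mismatch were chosen after several forms and allowances had been searched in the windows of the listed targets and the matches seen. With no mismatch allowed, 0 windows of the listed targets and 12 of all 32851 windows matched. Windows were found for 23 list symbols, and 3 (13.0%) had a match, beside 0.211% of all 27025 genes with a window. The targets were listed because they are known to hold such elements, and the search was settled on their windows, so the share is a description only. Capitals mark letters that match the core, read in the core's direction.
Gria2: tAGCACCgcGGACAG
Syn1: CAGCACCgcGGtCAG
Celsr3: CAGCACCgtGGgCAG
Counted from the first base of the core, the departures were C1T in Gria2, A12T in Syn1 and A12G in Celsr3. None of the 7 corepressor genes with a window (0 of 8 windows) had such a match; Rest, Hdac1 and Hdac3 were not among them.

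The upstream windows of these genes follow, 5' to 3' on the gene's strand, with the 15 bases of the core in capitals. That of Gria2 is chr3:80802836-80803085 (minus strand), with the core on the opposite strand of the window and ending 155 bases before the start. That of Syn1 is chrX:20920919-20921168 (minus strand), with the core 215 bases before the start. That of Celsr3 is chr9:108825795-108826044 (plus strand), with the core 110 bases before the start.
Gria2: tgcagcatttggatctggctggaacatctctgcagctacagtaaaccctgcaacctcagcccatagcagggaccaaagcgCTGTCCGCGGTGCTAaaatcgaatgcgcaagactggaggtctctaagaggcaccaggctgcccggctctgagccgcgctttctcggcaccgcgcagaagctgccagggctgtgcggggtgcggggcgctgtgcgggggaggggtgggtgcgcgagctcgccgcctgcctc
Syn1: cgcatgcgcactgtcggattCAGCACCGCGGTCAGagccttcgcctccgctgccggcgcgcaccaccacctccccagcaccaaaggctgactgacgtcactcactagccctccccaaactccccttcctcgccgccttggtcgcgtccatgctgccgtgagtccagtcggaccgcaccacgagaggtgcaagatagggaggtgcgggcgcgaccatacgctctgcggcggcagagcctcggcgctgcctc
Celsr3: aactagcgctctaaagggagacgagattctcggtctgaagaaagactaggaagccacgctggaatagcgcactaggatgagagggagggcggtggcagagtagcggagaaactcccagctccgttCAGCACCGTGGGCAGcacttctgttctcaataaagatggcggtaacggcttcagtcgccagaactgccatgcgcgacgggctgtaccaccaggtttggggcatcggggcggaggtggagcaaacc
Gria2, an AMPA receptor subunit gene, stood at 21.2 FPKM in the wild type and 83.7 in the knockout (log2 ratio 1.93). Syn1, which encodes the synaptic vesicle protein synapsin, had 14.6 and 25.2 FPKM (log2 ratio 0.75), within 2-fold. Celsr3, an atypical cadherin gene, had 30.2 and 19.8 FPKM (log2 ratio -0.58), within 2-fold and in the other direction.

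Among ion channel, transporter and receptor targets, the genes with the largest ratios started from low wild-type levels, while Chrnb2, a nicotinic receptor subunit gene named after its value was seen, lay within 2-fold (log2 ratio 0.45). Slc12a5, which encodes the neuronal potassium chloride cotransporter KCC2, stood at 0.688 FPKM in the wild type and 16.1 in the knockout (log2 ratio 3.34). Scn2a1, a sodium channel gene whose RE1 is a textbook example, had 0.900 and 11.0 FPKM (log2 ratio 2.66). Both passed the filter through the knockout library alone. Grin1, the obligatory NMDA receptor subunit gene, had 3.37 and 30.4 FPKM (log2 ratio 2.85).

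Some vesicle and secretory granule targets passed the 2-fold rule and others did not. Syt4, a synaptotagmin gene, had 3.49 and 39.9 FPKM (log2 ratio 3.19). Snap25, a SNARE gene of synaptic vesicle release, had 57.6 and 375.5 FPKM (log2 ratio 2.68), the highest knockout level on the list. The granin genes Scg2 (0.510 and 9.89 FPKM, log2 ratio 2.85, midpoint ratio 3.35), which also passed the filter through the knockout library alone, and Chgb (3.58 and 21.4 FPKM, log2 ratio 2.29) encode proteins of dense-core granules. For Chgb the bounds lay far above the FPKM, at 20.2 to 22.7 in the wild-type and 105.3 to 110.9 in the knockout library, with nearly the same ratio (2.28 from the midpoints). Of the others, named after their values were seen, Scg3 (40.0 and 76.3 FPKM, log2 ratio 0.91) and Chga (2.92 and 5.69 FPKM, log2 ratio 0.77), also granin genes, lay within 2-fold, as did Syn1, Unc13a and the presynaptic scaffold gene Bsn (log2 ratio 0.07).

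Other targets, named after their values were seen, differed less or were lower in the knockout. Tubb3, the neuronal beta-tubulin gene, had 184.5 and 227.4 FPKM (log2 ratio 0.30), and Stmn3, a stathmin gene, had 109.0 and 177.0 FPKM (log2 ratio 0.69). Unc13a, a vesicle priming gene, had 6.32 and 7.55 FPKM (log2 ratio 0.23). Ntrk3, the neurotrophin-3 receptor gene, was the target at least 2-fold lower, with 68.1 and 23.4 FPKM (log2 ratio -1.50). Chrm4, Vgf, Npas4, Glra1 and Oprm1 stayed under 1 FPKM in both libraries, and Oprm1 was listed at 0 in both.

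**Figure D4:**
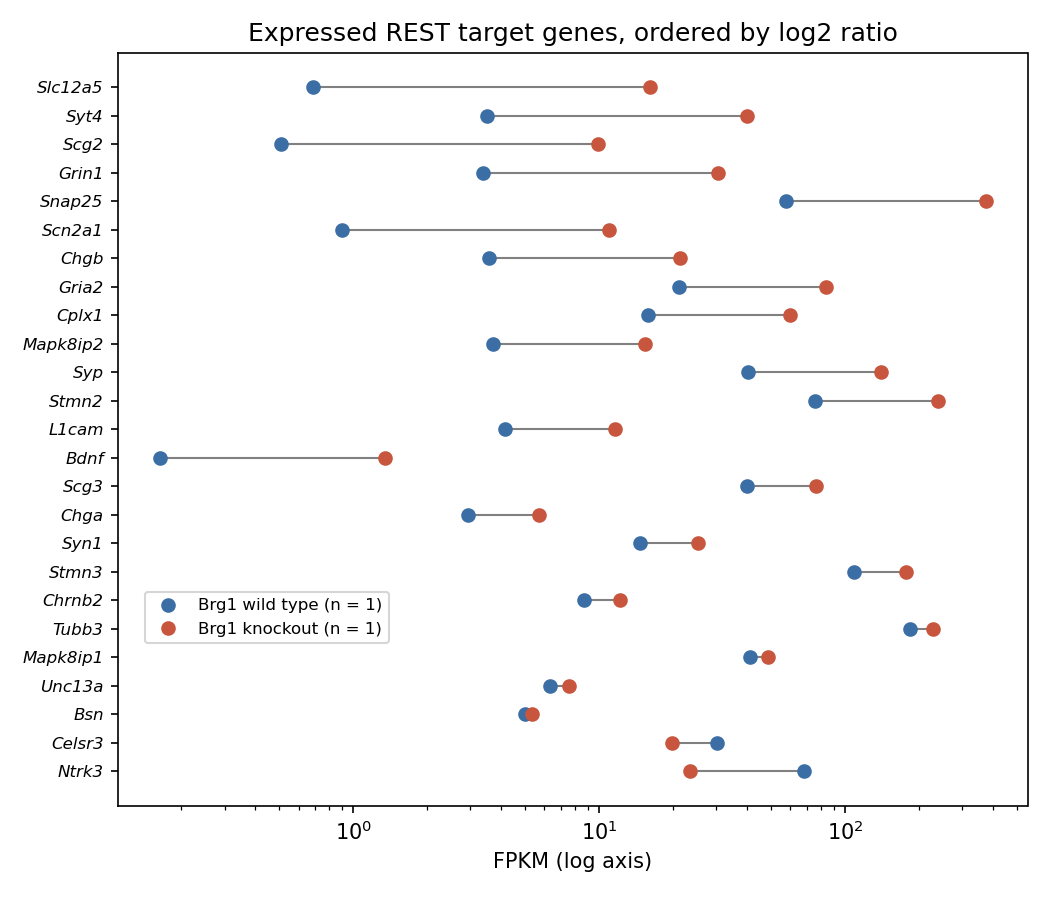
FPKM (log axis) of the 25 expressed REST target genes in the Brg1 wild-type (blue) and Brg1 knockout (red) libraries, n = 1 each, ordered by log2 ratio with the highest on top. Snap25 goes from 57.6 to 375.5 FPKM, Tubb3 from 184.5 to 227.4 FPKM, and Celsr3 and Ntrk3 are lower in the knockout library.

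The same library also had more RNA of mature cell markers than the wild type. Of 7 granule neuron markers 6 were at least 2-fold higher and their sum went from 119.6 to 547.2 FPKM. All 6 Purkinje cell markers were higher, summing to 17.1 and 828.1 FPKM, as were all 4 interneuron markers, summing to 2.23 and 107.9 FPKM. In cells that are not neurons, 6 of 6 astrocyte markers (401.9 and 2321 FPKM), 5 of 6 microglia markers (80.9 and 200.4 FPKM) and 2 of 5 endothelial markers (29.9 and 99.6 FPKM) were at least 2-fold higher, beside 16.1% of expressed records. From the midpoints 5 of 6 astrocyte markers were, without Aqp4, and 3 of 5 endothelial markers were from the midpoints and with equal FPKM sums. No marker was at 0 in either library. Some were under 1 FPKM in the wild type and passed the filter through the knockout library alone. Among these were Gad2, Slc32a1, Slc6a5, Pcp2, Rgs8, Cbln3 and Itgam, and for such markers the filter favours the higher direction. The part of these cells in the values of the REST targets, of Rest and of the corepressor genes was not tested.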

How the data were processed

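The authors deposited FPKM per gene for each library, with bounds below and above it and a status flag, per the file headers. Cuffdiff 2.1.1 and mm10 are named, with no role, in the submitters' processing notes. A statement on the aligner, the annotation or the making of the bounds is not given in the sources used here. No read counts were used, so depth is unknown.

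The 23746 records of both libraries were joined by symbol and locus. Where a symbol had several loci, the locus with the highest mean FPKM was used for list genes. Records of at least 1 FPKM in a library (13279) were called expressed. Log2 ratios used a pseudocount of 1 FPKM, and the rule of size was 2-fold. File starts count from 0 and are given here counted from 1. There were 17 gene lists, the 10 genes included. Some genes of the lists are not reported here, and counts and medians are without them. The members and lists were chosen with earlier results of these data known. Named genes were the 10 members, Smarca4 and, per list, up to 4 (8 for REST targets) that passed the rule of size with the largest absolute ratios, or the 2 most abundant where fewer than 2 did. Alternatives were other pseudocounts, scalings, filters and thresholds, and bound midpoints. The rule was tested on simulated data. Member transcripts were compared with all GENCODE M21 transcripts by BLAST 2.17.0 on the sense strand. The promoter motif form was chosen after its matches in the target windows were seen. Promoter sequences are RefSeq's on GRCm38.p6. Software was numpy 2.4.6 and pandas 2.3.3 under Python 3.11.15, with figures from matplotlib 3.10.9.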

Additional observations from a re-analysis of the deposited data

How the results depend on the processing

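No paired analysis was possible because each genotype had 1 library. Of 60 log2 ratios of the 10 members under other pseudocounts, scalings or midpoints, 59 kept their sign and their side of 2-fold; that of Hdac1 became 0.13 with equal FPKM sums. That of Rest ran from 0.06 to 0.39. A filter cannot change the ratio of a gene and is not counted here. Another pseudocount cannot change the sign of a ratio, so those settings bear only on its size. Rcor2 was the 1 member at least 2-fold lower in all planned settings at the 2-fold and 1.5-fold thresholds, and at 4-fold 0 members were. At 4-fold 7 REST targets were higher and 0 lower. Leaving out records whose FPKM lies outside its own bounds, an alternative chosen after seeing the data, kept 2 members, of which 0 were past 2-fold, and 8 targets, of which 3 were higher; fewer genes enter these counts. In the other settings 13 to 18 targets were higher, the 18 at the 1.5-fold threshold. No share of all expressed records is given at 4-fold, at 1.5-fold or for records inside their bounds. The counts in those settings therefore have no background beside them. In smaller lists, equal FPKM sums left 0 of 8 other Hdac genes, 1 of 14 cofactors and 1 of 10 NuRD genes lower, and midpoints left 0 REST level regulators and 0 NuRD genes higher. With no read counts, the precision of low values such as that of Rest is unknown.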
